A study of Homo sapiens with 6 samples.

Results

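The 197 loci described here carry a gene name of the form ZNF followed by a number, lie outside chromosomes 19 and Y, and averaged 1 FPKM or more over 6 libraries of K562 RNA. FPKM counts fragments for each kilobase of transcript relative to library size, so levels of different genes are compared per length. The loci were found among 285 loci with such a name, and among 12825 loci of any name that reached the same mean. The other 88 had a mean below 1 FPKM, and 26 of these were listed at 0 in all 6 libraries. The members were chosen by the mean of these 6 values, so their presence at this level is a description. No member depended on 1 condition for its place, since all 197 averaged 1 FPKM or more in the control libraries and in the knockdown libraries taken alone. The lowest single value of any member was 0.433 FPKM.

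K562 is an established human chronic myelogenous leukemia line with erythroid features. HNRNPU, a nuclear RNA-binding protein also called scaffold attachment factor A, was knocked down with siRNA at 300 nM, and the control cells received control oligos. From each condition whole-cell, nuclear and cytosolic RNA was sequenced, which gives 6 groups of 1 library. Below, a pair is the control value followed by the knockdown value of 1 preparation. No group has a replicate library, so no difference below has a replicate check or a test, and each describes these libraries. The series title names the control of lncRNA (long noncoding RNA) localization by HNRNPU as the subject. The ZNF transcripts are mostly protein-coding and stand beside that question.

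Most ZNF names belong to the C2H2 zinc finger family, the largest family of human transcription factors. Each finger is a short fold held by a zinc ion between cysteine and histidine residues, and arrays of fingers read DNA or RNA. Many members carry a KRAB box, which recruits the corepressor TRIM28 and, through it, the histone methyltransferase SETDB1 and heterochromatin protein 1, and which is known for silencing retrotransposons. Others carry a SCAN box, through which these proteins form dimers. Chromosome 19 holds the largest human clusters of KRAB genes, and the members treated here are those located elsewhere. Their own transcripts are usually of low abundance.

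Most of the loci were protein-coding and had a finger match, and a few did not. Of the 197 members, 191 were protein-coding by gene type and 6 were pseudogenes. A search of the longest translated reading frames for 1 C2H2 spacing pattern gave a count for 186 members and no match in 6 of them. Fingers of another spacing or type are missed by this pattern, so no match does not mean no finger. The median was 8 fingers and the highest count was 35, in ZNF142. A KRAB box was called in 91 members and none in 99, with no single call for 7, and a SCAN box was called in 16. The locus of 37 members merged several genes, so that its FPKM is not that of the ZNF gene alone. The members lie on 20 chromosomes, with 27 on chromosome 7, 24 on chromosome 16 and 17 on chromosome 1.

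The targeted transcript was lower in every knockdown library. The HNRNPU locus, merged with its antisense gene, kept 43.0% of its control FPKM in whole-cell RNA, 39.0% in nuclear RNA and 22.1% in cytosolic RNA. The K562 markers were present, with all 9 loci of the 10 genes looked up at a mean of 1 FPKM or more. Of 16 markers of other cell types, 5 also reached that mean (CD3D, CD3E, COL1A2, EPCAM and LYZ), and KRT5 and MS4A1 were at 0 throughout. Their summed level was 37.9 to 53.2 FPKM in the control and 38.7 to 59.9 FPKM in the knockdown libraries, and their part in the results was not tested. In bulk RNA, fewer cells of a type and less RNA per cell cannot be told apart. Per kilobase, an FPKM of 1 corresponded to about 13.3 fragments in the shallowest library, control cytosolic, and 38.8 in the deepest, knockdown nuclear. In the shallowest of its 4 nuclear and cytosolic libraries, the median member rested on about 164 fragments.

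Members were expressed at modest levels. Their mean over the 6 libraries had a median of 6.94 FPKM, against 8.98 FPKM over all loci kept, 11.8 FPKM over protein-coding loci and 5.47 FPKM over the 135 ZNF loci of chromosome 19. The 8 highest were led by ZNF595, whose locus also holds a clone-named gene, with a mean of 109 FPKM, and by ZNF207 with 80.8 FPKM. Of these 8, 6 were merged loci, among them ZNF343, which shares its locus with the spliceosome gene SNRPB, and ZNF775, which shares it with REPIN1. ZNF706 and ZNF638 were the 2 highest with a locus of their own. ZNF706 had 30.7 and 31.4 FPKM in the whole-cell pair, 29.9 and 30.0 in the nuclear pair, and 84.9 and 83.5 in the cytosolic pair. Its control and knockdown values were nearly equal in each preparation, and the cytosolic libraries were high in both conditions. At the other end, the members just inside the minimum were ZNF385C at 1.09, ZNF815P at 1.11, ZNF75D at 1.18, ZNF354A at 1.32 and ZNF34 at 1.40 FPKM. The loci just outside it were ZNF503 at 0.956, ZNF25 at 0.906, ZNF736 at 0.898, ZNF483 at 0.897 and ZNF341 at 0.870 FPKM.

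The first comparison asks where the transcripts stood between nucleus and cytosol in control cells. The nuclear-to-cytosolic ratio is the log2 of nuclear over cytosolic FPKM after 0.1 was added to each, which understates ratios of low loci. Its zero depends on how the libraries were scaled, so positions are read against all loci. The members' median was -0.43, with quartiles of -0.94 and 0.01, beside a median of -0.44 over all loci kept, -0.61 over protein-coding loci and -0.38 over the ZNF loci of chromosome 19. The members thus stood 0.02 above the median of all loci, and 0.02 with libraries brought to the same median, 0.04 with equal totals and 0.01 after quantile normalization. The gap depended on which loci were kept: it was 0.19 at a minimum mean of 5 FPKM, 0.11 for members with a single-name locus and -0.30 with no minimum. By count, 50 of 197 (25.4%) were above 0, against 34.9% of all loci and 26.7% of protein-coding loci. With libraries of equal median the count above 0 was 98 of 197 (background 48.4%), with equal totals 174 (77%), and after quantile normalization 87 (46.5%). At least 2-fold higher in nuclear RNA were 12 members (6.09%), against 16% of all loci and 6.68% of protein-coding loci. At least 2-fold lower in nuclear RNA were 43 (21.8%), against 29.1% of all loci and 32.8% of protein-coding loci. These counts moved with the scaling. With equal medians 24 members were 2-fold higher and 14 lower (backgrounds 21.5% and 15.5%), with equal totals 73 and 2 (39.9% and 2.85%), and after quantile normalization 13 and 24 (15.6% and 14.6%).

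The most cytosolic member was ZNF277 (chromosome 7, 111846642 to 111983151 on hg19), a zinc finger gene whose locus includes a small RNA pseudogene. It had 17.0 and 19.3 FPKM in the whole-cell pair, 11.1 and 12.9 in the nuclear pair, and 59.4 and 57.1 in the cytosolic pair. The cytosolic values were over 4 times the nuclear values in both conditions, with log2 ratios of -2.40 and -2.14. ZNF22 (chromosome 10, 45495922 to 45502496), a short protein with 5 fingers, had 14.6 and 13.9 FPKM in the whole-cell pair, 11.4 and 12.8 in the nuclear pair, and 45.7 and 44.7 in the cytosolic pair. ZNF32, with 7 fingers, had 4.49 and 5.07 FPKM in the nuclear pair against 18.8 and 20.5 in the cytosolic pair. The ratios of ZNF22 and ZNF32 in the control were -1.997 and -2.04. The other 3 of the lowest 6 were ZNF883 at -2.21, the locus of ZNF511 and PRAP1 at -1.90, and ZNF271 at -1.82. All 6 were high in cytosolic RNA in both conditions.

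The most nuclear member was ZNF767 (chromosome 7, 149244244 to 149321843), a transcribed pseudogene. It had 11.2 and 10.2 FPKM in the whole-cell pair, 11.6 and 10.3 in the nuclear pair, and 2.48 and 1.29 in the cytosolic pair. Its ratio was 2.18 in the control and 2.90 after knockdown. ZNF117, whose locus is merged with the endogenous retroviral gene ERV3-1, had 19.5 and 15.9 FPKM in the nuclear pair against 5.32 and 5.30 in the cytosolic pair. ZNF692 (chromosome 1, 249144204 to 249153343), with 5 fingers, had 17.3 and 12.8 FPKM in the nuclear pair against 5.85 and 5.45 in the cytosolic pair. ZNF117 had a control ratio of 1.85 and ZNF692 a control ratio of 1.55, and both were lower by about 0.3 after knockdown, at 1.57 and 1.21. The next were ZNF789 at 1.52, ZNF407 at 1.44 and ZNF783, whose locus also holds a clone-named gene, at 1.36. In all 6 the nuclear value was the higher in both conditions. The counting errors of these 12 control ratios ran from 0.07 for ZNF22 to 0.33 for ZNF783.

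**Figure D1:**
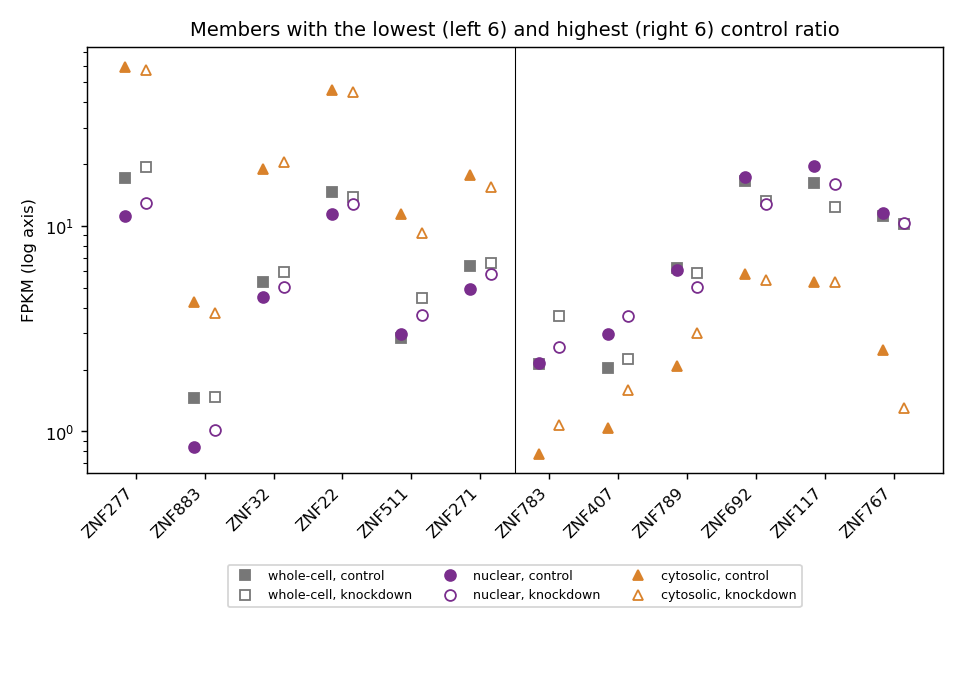
FPKM on a log axis in each of the 6 libraries for the members at the 6 lowest and 6 highest control nuclear-to-cytosolic ratios; filled symbols are control and open symbols knockdown, squares whole-cell, circles nuclear and triangles cytosolic RNA, 1 library each. Cytosolic triangles lie above the nuclear circles for every gene on the left, from ZNF277 to ZNF271, and below them for every gene on the right, from ZNF783 to ZNF767.

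Of the 6 pseudogene members, a group formed after their values were seen, 5 had control ratios below -1 and 1 had the highest ratio of any member. ZNF883 is a pseudogene by gene type, yet a coding transcript gave it a reading frame of 379 residues with 13 fingers. It is therefore also counted among the members without a KRAB box. Control ratios were -2.21 for ZNF883, -1.82 for ZNF271, -1.71 for ZNF815P, -1.52 for ZNF252P and -1.12 for ZNF204P, against 2.18 for ZNF767. The background for a ratio of -1 or lower was 29.1%. With equal medians the count was 4 (background 15.5%), with equal totals 1, which was ZNF883 (2.85%), and after quantile normalization 3 (14.6%). Their levels differ widely, and ZNF815P rests on about 6.59 fragments in its shallowest fraction library. ZNF271, on chromosome 18, had 6.40 and 6.60 FPKM in the whole-cell pair, 4.94 and 5.805 in the nuclear pair, and 17.6 and 15.4 in the cytosolic pair.

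Protein class and the control ratio were then set side by side. The 91 members with a KRAB box had a median ratio of -0.29 and the 99 without one a median of -0.48, a difference of 0.20 with a 95% interval over loci of -0.04 to 0.43. The interval includes 0, and it reflects variation among loci only. KRAB members were also lower in level, with a median mean of 5.66 FPKM against 8.33 FPKM, and across the 197 members the ratio and the log2 mean level had a Pearson correlation of -0.30 (Spearman -0.32). These points share the same libraries. Among members averaging 5 FPKM or more the difference was 0.05, and after quantile normalization it was 0.01. On chromosome 19 the medians were -0.29 for 105 KRAB loci and -0.76 for 24 loci without one. The 16 members with a called SCAN box had a median of -0.03 and ranged from -1.14 to 1.32. The call rests on 1 short sequence pattern, so boxes that depart from it are missed. By finger number, with bins chosen after the values were seen, the medians were -0.59 for the 52 members with 1 to 5 fingers, -0.31 for 65 with 6 to 10 and -0.35 for 63 with more than 10. Over the 186 members with a protein, the control ratio had a Pearson correlation of 0.18 with the finger count and 0.22 with the protein length.

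**Figure D2:**
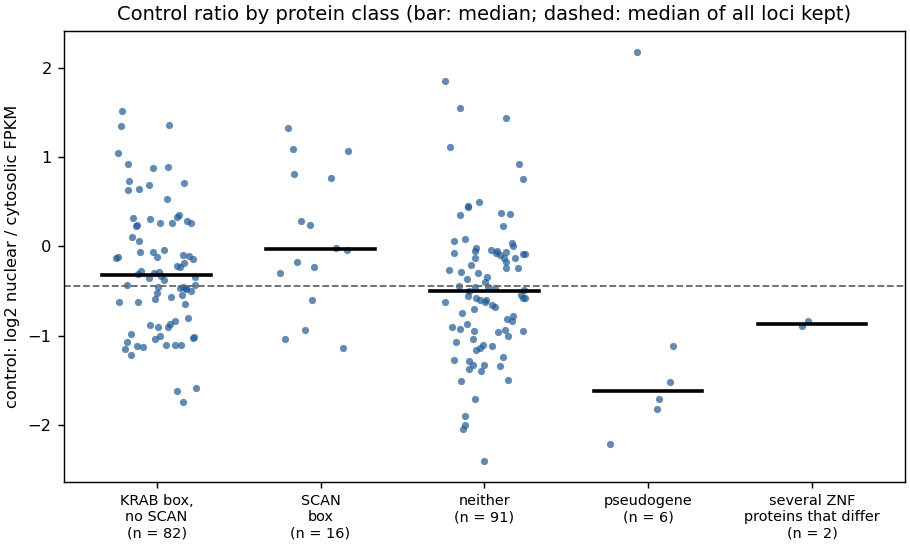
Control log2 nuclear-to-cytosolic FPKM of each member by protein class; each point is 1 locus, bars are class medians and the dashed line is the median of all loci kept (-0.44). The class with a called SCAN box has the highest median (-0.03, n = 16) and the pseudogenes the lowest (-1.61, n = 6). Every class with more than 2 members overlaps the others.

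Control ratios were also compared within groups of neighbouring members. Clusters were formed of at least 3 members whose starts lay within 300 kb of the next, which gave 14 clusters with 70 members. The control ratio was below 0 throughout 5 clusters and spanned 0 in 9. That split depends on where the scaling puts 0, and it is not given for the other scalings. No baseline of members outside clusters is given, so whether neighbours differ more or less than other members was not tested. The widest cluster, on chromosome 7 from 148766734 to 149564568 (hg19), held 10 members and ran from -0.87 for ZNF467 to 2.18 for ZNF767. Its highest members by level were ZNF282, with 15.4 and 20.7 in the nuclear pair and 23.7 and 24.6 in the cytosolic pair, and ZNF777, with 7.98 and 9.38 FPKM against 14.3 and 16.3 FPKM. On chromosome 18, from 32820993 to 32957301, ZNF397 had a control ratio of 0.81 and its neighbour ZNF271 one of -1.82. The tightest was on chromosome 10 from 38091750 to 38414472, where ZNF248, ZNF33A and ZNF37A lay between -0.35 and -0.09. On chromosome 1, from 247108848 to 247495148, the 4 members lay between -1.14 and -0.28, led in level by ZNF496 and ZNF124. The 3 members on chromosome 6 near ZNF184 lay between -1.12 and -0.53.

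**Figure D3:**
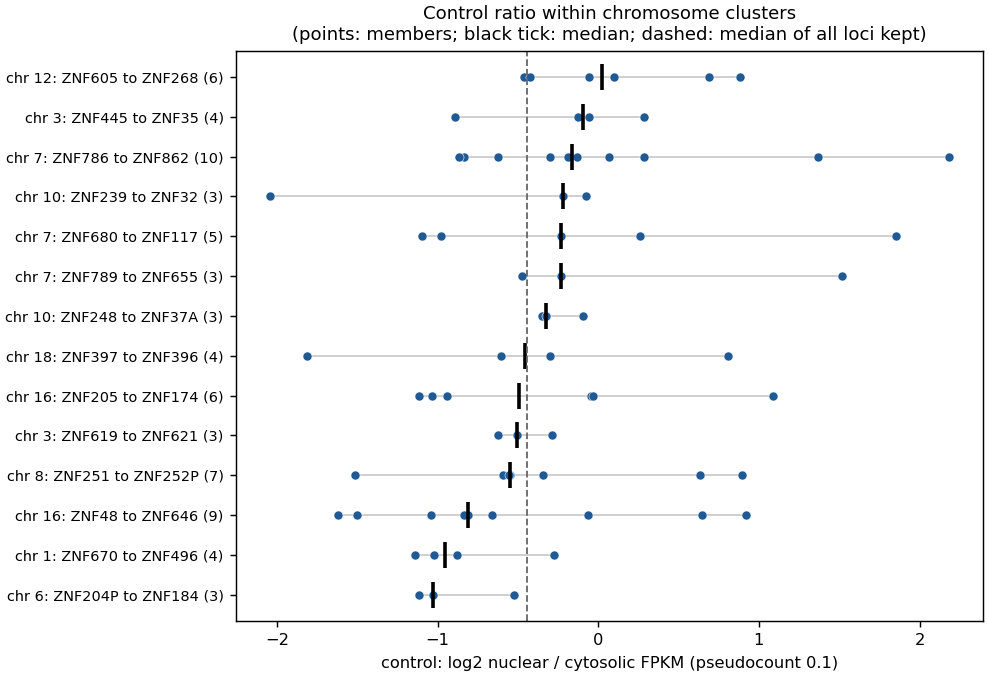
Control log2 nuclear-to-cytosolic FPKM of the 70 members in 14 chromosome clusters, named by chromosome and by their first and last member with the number of members in brackets; black ticks are cluster medians and the dashed line is the median of all loci kept (-0.44). The clusters are ordered by median, and most hold members on both sides of the dashed line.

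The promoter windows of neighbouring genes overlapped head to head in 2 cases. ZNF668 (chromosome 16, 31072163 to 31085641 on hg19) and ZNF646 (31085742 to 31095517) are transcribed away from each other, and their RefSeq windows, 250 bases before to 50 after the start, overlap by 281 bases. These 2 genes were chosen after their values were seen. The window of ZNF646 is shown on its own strand, at chr16:31074172-31074471 of GRCh38.p14 (RefSeq), a build whose coordinates differ from the deposited ones. Capitals mark the letters CCGGAAGT, the core bound by ETS (E26) factors, found 2 times in this window. The window of ZNF668 holds the same 2 sites, read on the other strand.

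ZNF646 promoter: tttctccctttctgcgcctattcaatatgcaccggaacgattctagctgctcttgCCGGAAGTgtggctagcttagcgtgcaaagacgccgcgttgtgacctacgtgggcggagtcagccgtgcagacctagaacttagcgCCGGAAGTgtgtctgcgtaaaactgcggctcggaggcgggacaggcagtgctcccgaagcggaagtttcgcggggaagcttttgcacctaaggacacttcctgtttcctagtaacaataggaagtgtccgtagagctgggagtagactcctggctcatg

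In the 6 libraries ZNF668 had 2.55 and 3.91 FPKM in the whole-cell pair, 2.85 and 2.46 in the nuclear pair, and 4.55 and 3.83 in the cytosolic pair. ZNF646 had 7.35 and 6.95 FPKM in the whole-cell pair, 9.36 and 10.1 in the nuclear pair, and 4.91 and 5.38 in the cytosolic pair. The cytosolic value was the higher for ZNF668 and the nuclear value for ZNF646 in both conditions, with control ratios of -0.66 and 0.92 and counting errors of 0.22 and 0.11. With equal totals the control ratio of ZNF668 was 0.49, above 0, and that of ZNF646 was 2.08. Their shifts after knockdown were 0.04 and -0.02. The windows of ZNF891 and ZNF10 on chromosome 12 likewise overlap by 148 bases, and the locus of ZNF10 is merged with ZNF268 and a clone-named gene. ZNF891 had 1.64 and 2.41 FPKM in the nuclear pair and 0.981 and 0.861 in the cytosolic pair, and the locus of ZNF10 had 6.35 and 6.60 against 5.91 and 8.08. Their control ratios of 0.69 and 0.10 were both above 0, so these neighbours were not on opposite sides of 0; after quantile normalization they were at -0.22 and 0.39.

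After knockdown the members kept much of their order between nucleus and cytosol. Across the 197 members the control and knockdown ratios had a Pearson correlation of 0.88, and 0.86 across all loci kept. By rank the members were the lower, with a Spearman correlation of 0.87 against 0.91 across all loci kept. These are correlations over loci of the same 4 libraries, so depth and library composition are shared. The localization shift is the knockdown ratio minus the control ratio, with values below 0 toward the cytosol. The members' median shift was 0.00, with a 95% interval over loci of -0.05 to 0.05 and quartiles of -0.20 and 0.21. The interval reflects variation among loci only, not between libraries. After quantile normalization the median was 0.0644, outside it. At least 2-fold toward the cytosol was 1 member (0.508%), against 3.83% of all loci and 1.47% of protein-coding loci. At least 2-fold toward the nucleus were 2 (1.02%), against 3.27% and 1.13%. With a pseudocount of 1 both counts were 0, and no share of all loci is given for that setting. A shift of at least 1.5-fold either way was seen in 22 members (11.2%), against 16.8% of all loci, 9.91% of protein-coding loci and 18.5% of the ZNF loci of chromosome 19. More than 1.96 counting errors from 0 were 47 members (23.9%), where the background was 27.9%, with 18 toward the cytosol and 29 toward the nucleus. That split depends on where the scaling puts 0, and no split over all loci is given, so it is not read as a lean. The counting error covers counting only and had a median of 0.19, against 0.17 over all loci with a known length, so the 2 shares do not rest on equal errors.

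ZNF513 (chromosome 2, 27600097 to 27603657), a transcription factor with 8 fingers, was the member past 2-fold toward the cytosol. It had 3.33 and 3.64 FPKM in the whole-cell pair, 4.49 and 3.09 in the nuclear pair, and 2.61 and 3.785 in the cytosolic pair. The nuclear value was the higher in the control and the cytosolic value after knockdown, a shift of -1.04 or 2.94 counting errors. ZNF84 (chromosome 12, 133613877 to 133639885), a KRAB protein with 19 fingers, had 7.03 and 6.39 FPKM in the nuclear pair and 3.77 and 6.94 in the cytosolic pair, a shift of -0.997. ZNF589 (chromosome 3, 48282589 to 48340743), a KRAB protein first described in haematopoietic stem cells, had 9.84 and 9.86 FPKM in the nuclear pair and 3.80 and 7.30 in the cytosolic pair, a shift of -0.92. For ZNF84 and ZNF589 the cytosolic pair differed most, and their shifts were 4.38 and 4.69 counting errors. ZNF710 had 3.38 and 1.775 FPKM in the nuclear pair with 4.37 and 4.43 in the cytosolic pair, so there the nuclear pair differed most. ZNF143, an activator that binds the promoters of small nuclear RNA and many other genes, had 4.82 and 7.63 FPKM in the whole-cell pair, 8.79 and 6.004 in the nuclear pair, and 9.93 and 12.2 in the cytosolic pair. It was higher after knockdown in whole-cell and cytosolic RNA and lower in nuclear RNA, a shift of -0.84. ZNF789 completed the lowest 6 at -0.80.

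Toward the nucleus the shift of ZNF774 (chromosome 15, 90895476 to 90909324), with 12 fingers, was the highest at 1.12 or 3.65 counting errors. It had 2.29 and 3.38 FPKM in the whole-cell pair, 1.59 and 2.54 in the nuclear pair, and 4.28 and 3.04 in the cytosolic pair. The pseudogene ZNF815P was the other member past 2-fold, at 1.10 with a counting error of 0.79. ZNF609 (chromosome 15, 64752940 to 64978264), a protein known for contacts with the cohesin loader and the Integrator complex, had 21.8 and 23.7 FPKM in the whole-cell pair, 20.4 and 23.5 in the nuclear pair, and 38.1 and 26.5 in the cytosolic pair. Its shift of 0.73 was 10.2 counting errors, on at least 1311 fragments per fraction library, and the cytosolic pair differed most. ZNF821 at 0.90, ZNF862 at 0.81, ZNF717 at 0.74 and ZNF767 at 0.72 made up the rest of the highest 6 of those averaging 2 FPKM or more. Both ZNF862 and ZNF767 rested on under 30 fragments in their shallowest fraction library, at about 26.6 and 23.3.

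**Figure D4:**
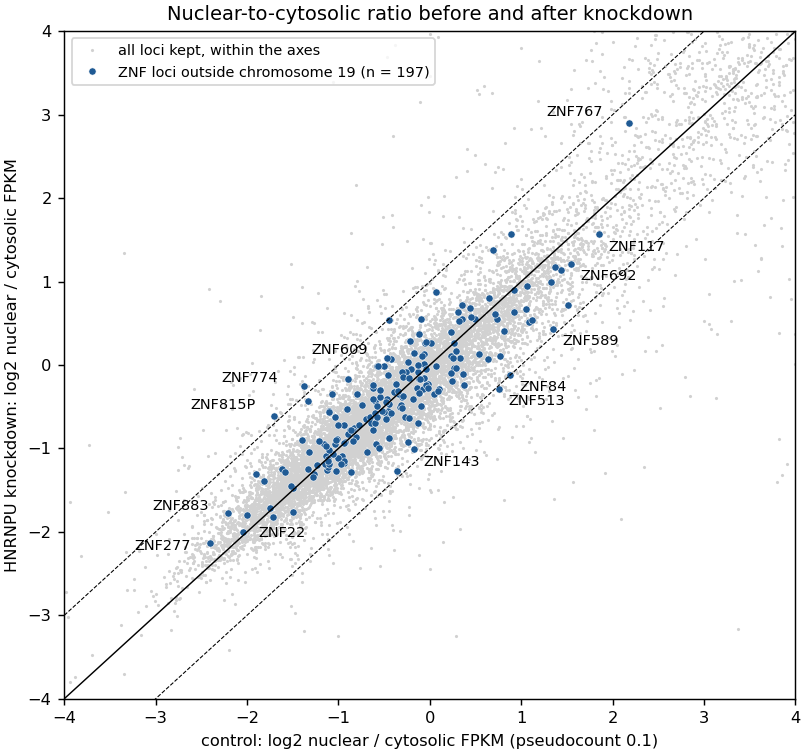
Log2 nuclear-to-cytosolic FPKM in the control (x axis) and after HNRNPU knockdown (y axis), with the 197 members in blue and all other loci kept in grey; the solid line marks no shift and the dashed lines a 2-fold shift either way. The members follow the solid line, and ZNF513, ZNF774 and ZNF815P are the 3 at or past a dashed line.

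Within each preparation the knockdown and control levels of the members were close. The log2 ratio of knockdown over control had a median of 0.10 in whole-cell RNA, 0.08 in nuclear RNA and 0.08 in cytosolic RNA. Over all loci kept the medians were 0.06, 0.03 and 0.03. Above 0 were 132, 123 and 117 of the 197 members, where the backgrounds were 60.7%, 54% and 54.3%. With equal medians the whole-cell count was 112 (background 51.4%), with equal totals 110 (49.6%) and after quantile normalization 113 (50.2%). No member was 2-fold different in whole-cell RNA, where 1.36% of all loci were higher and 1.29% lower, and none in nuclear RNA, where the shares were 1.04% and 1.5%. After quantile normalization 1 member was 2-fold higher and 1 lower in each of these preparations. The backgrounds under that scaling were 2.1% and 2.18% in whole-cell RNA and 1.81% and 2.29% in nuclear RNA. In cytosolic RNA none was 2-fold higher (background 2.62%) and 1, ZNF862, was 2-fold lower (background 2.63%). At 1.5-fold, 12 members were higher and 3 lower in whole-cell RNA (backgrounds 4.76% and 3.87%), 5 and 1 in nuclear RNA (3.85% and 4.73%), and 7 and 3 in cytosolic RNA (6.41% and 5.89%).

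**Figure D5:**
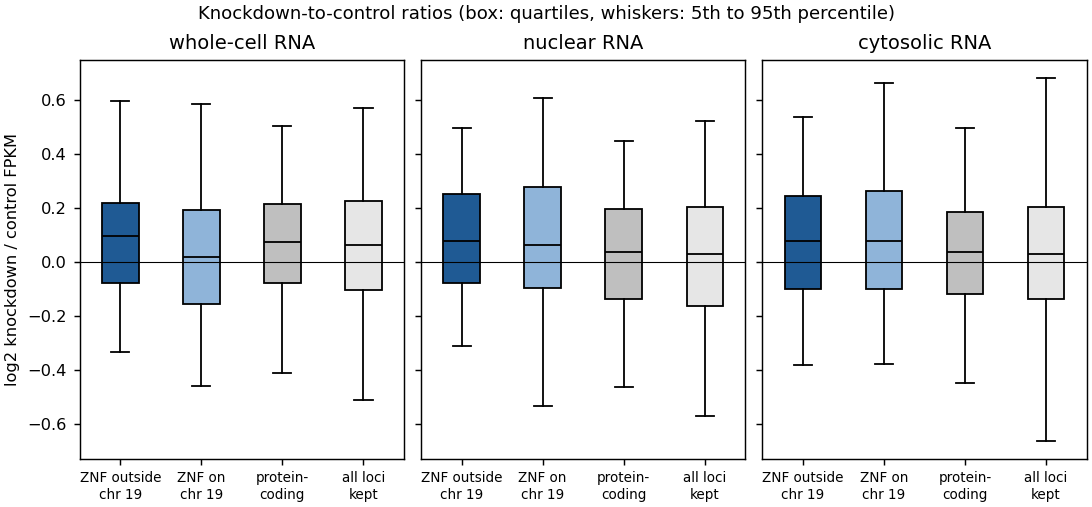
Log2 knockdown over control FPKM in whole-cell, nuclear and cytosolic RNA for the 197 members, the 135 ZNF loci of chromosome 19, protein-coding loci and all loci kept; boxes are quartiles with the median, and whiskers the 5th to 95th percentile of loci. All boxes cross 0, and the members' medians are 0.10, 0.08 and 0.08.

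The direction held across preparations for part of the members. In all 3 preparations 61 members (31%) were above 0, where the background was 24.6%, and 16 (8.12%) were below 0, where it was 13.2%. With equal medians these counts were 52 and 25 (backgrounds 19.8% and 16.6%), with equal totals 50 and 25 (19.6% and 17.2%), and after quantile normalization 49 and 26 (19.3% and 17.1%). No member was 1.5-fold higher in all 3, where 0.343% of all loci were, or 1.5-fold lower, where 0.234% were. The ratios of the preparations were only weakly related over members, with a Pearson correlation of 0.19 between whole-cell and nuclear RNA, 0.08 between whole-cell and cytosolic RNA and 0.12 between nuclear and cytosolic RNA. The 12 members named next kept their direction in all 3 preparations under each of the 3 other scalings.

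ZNF267 (chromosome 16, 31885078 to 31928668), a KRAB protein with 14 fingers, led the members that were higher in every preparation. It had 8.80 and 11.3 FPKM in the whole-cell pair, 7.39 and 10.8 in the nuclear pair, and 15.04 and 20.04 in the cytosolic pair, which is 0.36, 0.54 and 0.41 on the log2 scale. ZNF281, a repressor known from pluripotent cells and epithelial-mesenchymal transition, had 6.47 and 7.79 FPKM in the whole-cell pair, 8.20 and 11.1 in the nuclear pair, and 9.46 and 11.5 in the cytosolic pair. ZNF629 had ratios of 0.28, 0.25 and 0.34, ZNF33A of 0.25, 0.31 and 0.31, ZNF621 of 0.24, 0.25 and 0.34, and ZNF783 of 0.76, 0.23 and 0.43. All 6 therefore had the knockdown library as the higher of the pair 3 times, by less than 2-fold.

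Among those lower in every preparation, ZNF169 (chromosome 9, 97021592 to 97063736), a KRAB protein with 11 fingers, was first. It had 4.17 and 2.09 FPKM in the whole-cell pair, 3.28 and 2.78 in the nuclear pair, and 2.64 and 1.75 in the cytosolic pair. The whole-cell ratio of -0.97 was the lowest of any member. ZNF862 had 2.14 and 1.93 FPKM in the whole-cell pair, 2.98 and 2.38 in the nuclear pair, and 2.84 and 1.25 in the cytosolic pair, so that the cytosolic pair differed most, by -1.13. ZNF335, a component of a histone H3 lysine methyltransferase complex, had ratios of -0.25, -0.26 and -0.18. The merged ZNF343 had -0.14, -0.23 and -0.20, ZNF484 had -0.17, -0.18 and -0.12, and ZNF767 had -0.13, -0.16 and -0.89.

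The members with known roles in RNA handling, ribosomes or the spindle were among the more abundant. All 12 listed genes were kept, with a median mean of 24.6 FPKM, and none shifted by 1.5-fold either way, where the background was 16.8%, with shifts from -0.25 to 0.17. In all 3 preparations 5 of 12 were higher after knockdown and 1 was lower, beside backgrounds of 24.6% and 13.2%. ZNF207, also called BUGZ, a spindle assembly factor that binds BUB3, had 69.4 and 82.9 FPKM in the whole-cell pair, 69.3 and 84.7 in the nuclear pair, and 84.8 and 93.6 in the cytosolic pair at a merged locus. ZNF598, the ubiquitin ligase that senses collided ribosomes, had 24.0 and 25.5, 23.6 and 24.7, and 57.2 and 62.6 FPKM in the same order. ZNF622, a factor in maturation of the large ribosomal subunit, had 11.2 and 15.1, 17.1 and 20.1, and 17.3 and 24.3 FPKM. These 3 were higher after knockdown in each preparation, ZNF598 by no more than 0.13. ZNF593, related to a yeast factor that acts on the same subunit, was the 1 lower in all 3, with 15.5 and 14.1, 14.6 and 12.5, and 48.1 and 44.4 FPKM. ZNF638 and ZNF326 were those with more nuclear than cytosolic FPKM, at control ratios of 0.46 and 0.49. ZNF638 is a nuclear protein that binds cytidine-rich sequences and ZNF326 belongs to the DBIRD complex, which couples transcription and splicing.

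Members of chromatin complexes had a wider range of shifts than the list before, inside the range of all members (-1.04 to 1.12). Of 15 listed, 13 were kept (ZNF532 and ZNF827 were not), and their median shift was -0.08 with a range of -0.58 to 0.18. None shifted by 1.5-fold either way, where the background was 16.8%. With equal totals 2 did, and no background is given for that scaling. ZNF644, a partner of the histone methyltransferases EHMT1 and EHMT2, had 11.96 and 11.1 FPKM in the whole-cell pair, 10.4 and 10.5 in the nuclear pair, and 11.4 and 17.1 in the cytosolic pair. ZNF687, of the complex with ZMYND8, had 7.43 and 8.10 FPKM in the whole-cell pair, 9.64 and 10.1 in the nuclear pair, and 7.49 and 10.9 in the cytosolic pair. In both the cytosolic pair differed most, and their shifts were -0.57 and -0.47. ZNF592, of the same complex as ZNF687, had a shift of 0.01. ZNF512B, at a locus merged with SOX18, had a shift of -0.43, with 12.8 and 9.13 in the nuclear pair and 17.5 and 16.8 in the cytosolic pair. ZNF217, an oncogene that works with the CoREST complex, had 11.5 and 12.5 FPKM in the whole-cell pair and a shift of -0.04. ZNF276 had the largest negative shift of the list at -0.58, and ZNF518A the largest positive one at 0.18.

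Of 17 well-known regulators 14 were kept, and ZNF423, ZNF703 and ZNF750 were not. Whole-cell ratios were above 0 for 13 of the 14, where the background was 60.7%, nuclear ratios for 7 (54%) and cytosolic ratios for 10 (54.3%). After quantile normalization the whole-cell count was 10 of 14 (background 50.2%). ZNF467 had the largest whole-cell difference, with 2.32 and 4.27 FPKM, while its nuclear RNA had 3.32 and 2.73 FPKM. ZNF292 had 6.56 and 8.68 FPKM in the whole-cell pair and 9.09 and 8.48 in the nuclear pair, again with opposite directions. ZNF24, a SCAN protein, was higher in each preparation, by 0.19, 0.35 and 0.32. ZNF445, a KRAB protein that guards genomic imprints, had 13.2 and 12.9 FPKM in the whole-cell pair, 15.6 and 15.3 in the nuclear pair, and 12.8 and 13.6 in the cytosolic pair, so its pairs were nearly level. ZNF76, the close relative of ZNF143, had a shift of -0.09 beside the -0.84 of ZNF143. ZNF521, a haematopoietic progenitor factor, had 8.85 and 9.90 FPKM in the whole-cell pair, 14.1 and 13.9 in the nuclear pair, and 10.4 and 8.66 in the cytosolic pair.

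The locus of ZNF410, known as a dedicated activator of CHD4, also holds PTGR2 and a clone-named gene, so its FPKM is not that of ZNF410 alone. It had 20.2 and 21.4 FPKM in the whole-cell pair, 17.7 and 20.4 in the nuclear pair, and 31.5 and 34.3 in the cytosolic pair. CHD4, the remodelling ATPase of the NuRD complex, had 49.8 and 61.6, 81.6 and 114.5, and 72.8 and 43.9 FPKM in the same order. On the log2 scale the knockdown ratios were 0.08, 0.21 and 0.12 for the locus of ZNF410 and 0.31, 0.49 and -0.73 for CHD4. Their shifts were 0.08 and 1.22. A relation between the 2 was not tested.

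The corepressor genes that KRAB proteins act through were read in the same way. All 29 listed genes were kept, 9 were higher after knockdown in all 3 preparations (background 24.6%) and 1 was lower (background 13.2%). None was 2-fold different in any preparation, where the backgrounds ran from 1.04% to 2.63% for each preparation and direction. TRIM28, which KRAB boxes bind, had 93.7 and 106 FPKM in the whole-cell pair, 103 and 128 in the nuclear pair, and 162 and 193 in the cytosolic pair. SETDB1, the methyltransferase that TRIM28 recruits, had 13.8 and 13.7, 14.6 and 15.5, and 13.7 and 15.8 FPKM. The median shift of the list was 0.06, beside 0.00 over all loci kept. CHD4 was the 1 gene of 29 past 2-fold in shift, toward the nucleus, where the background was 3.27%. MORC2 at -0.85 and ATRX at -0.81 had the largest shifts the other way. ATF7IP, a SETDB1 cofactor, had 6.45 and 12.4 FPKM in the whole-cell pair but 14.3 and 14.2 in the nuclear pair and 14.6 and 15.3 in the cytosolic pair.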

How the data were processed

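The authors deposited FPKM values, 1 column for each of the 6 libraries, over 62828 loci, of which 62309 remain without chromosome Y; values and tools point to this unit, which no header names. Per the labels' protocols, TRIzol RNA was depleted of ribosomal RNA and sequenced from strand-specific libraries, with separate providers named for fraction and total RNA. Tools in the submitters' processing notes are TopHat2 2.0.13, Cuffdiff 2.2.1, CASAVA and FastQC, with the builds hg19 and mm9 and no roles. Coordinates in the table are of hg19. Annotation, strand use and library scaling were not given in the sources used here, so antisense and near-identical ZNF genes may share fragments.

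Ratios are differences of log2(FPKM + 0.1) over loci averaging 1 FPKM or more. With 1 library per group no test was run and values were described by size, beside the same share of all 12825 loci. Depth came from FPKM steps of loci with 1 exon (length less 220 bases), and counting errors from these and GENCODE 29 mean transcript lengths. KRAB, SCAN and finger calls came from the longest open reading frames of GENCODE 29 coding transcripts, in place of the RefSeq proteins planned; the KRAB score minimum of 50 was set from the sequences and known KRAB genes after the data were seen. RefSeq promoters matched 169 of 204 ZNF names. The members and lists were chosen with earlier results of these data known.

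Named are the 8 members of highest mean, the 6 lowest and 6 highest control ratios, the 6 lowest and 6 highest shifts and the 6 most different each way in all 3 preparations (both at a mean of at least 2 FPKM), members of 3 role lists, the 2 highest in each cluster, corepressor genes, and the 5 loci either side of the minimum; not all are printed. Other pairs, the pseudogenes and the head-to-head genes were added after their values were seen. Alternatives were a pseudocount of 1, a minimum mean of 5 FPKM, no minimum, 3 other scalings and single-name loci. Python 3.11.15, numpy 2.4.6, pandas 2.3.3, scipy 1.17.1, Biopython 1.88 and matplotlib 3.10.9 were used, and the ratios were tested on simulated data.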

Additional observations from a re-analysis of the deposited data

How the results depend on the processing

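The median control ratio of -0.43 was -0.012 with libraries of equal median, -0.0644 after quantile normalization and 0.76 with equal totals, where the sign reversed. The median of all loci moved with it, to -0.03, -0.08 and 0.71 from -0.44, and the members stood 0.01 to 0.04 above it under these 3 scalings. They stood 0.19 above it at a minimum mean of 5 FPKM, 0.11 above with single-name loci only and at -0.30 from it with no minimum. The median shift was 0.0644 after quantile normalization. The whole-cell knockdown median of 0.10 was 0.0429 with equal medians and 0.0315 with equal totals. The count of members past 2-fold toward the cytosol, 1 as reported, was 0 with a pseudocount of 1 and 0 of 126 at a minimum mean of 5 FPKM. It was 7 of 259 with no minimum and 2 with equal totals (background 3.75%). The count toward the nucleus, 2 as reported, was 0, 0 and 10 under the first 3 of these and 4 after quantile normalization (background 2.63%). No share of all loci is given for those first 3 settings, so their counts are not read against a background. The cause of these differences was not tested. Of the 10 results, all 10 kept within their limits when only single-name loci were used. The labels number no replicates, so no replicate block was formed; the 3 preparations were not used as blocks for condition, since nothing says that they came from separate cultures. With 1 library in each group, none was left out. Depth limits members near 1 FPKM most: the counting error of a shift reached 0.79 for ZNF815P.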

Other observations

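The 2 short promoter motifs given here, chosen with the results known, were searched on either strand of the RefSeq windows (GRCh38.p14, 250 bases before to 50 after the start). No member window held overlapping matches of the 2 motifs. The ETS core CCGGAAGT was found in 29 of 169 member windows (17.2%), in 20.9% of 139 ZNF windows of chromosome 19 and in 4.44% of all 27305 windows. ZNF646 and ZNF668, whose windows share the same sites, are both counted among the 29. The YY1 motif AAGATGGCG was found in 1.78% of member windows, 4.32% of those on chromosome 19 and 1.85% of all windows. Member windows had a median GC content of 63%, all windows 58.3%. The letters CG, which the ETS core holds, occurred a median of 24 times in member windows and 14 times in all windows. Whether the motif share goes beyond this base content was not tested. All windows include those of noncoding genes, and a match is a description of letters. Longer motifs of ZNF143 and NRF1 were also searched, and their results are not given, since their letters could not be printed. The letters of the 2 motifs given were likewise not taken from the deposited or reference files.

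Zinc finger genes named ZBTB, ZKSCAN, ZSCAN or ZFP gave 64 loci at the same minimum, 1 of which is merged with a member. Their median control ratio was -0.45 and their median shift 0.03. ZFP90, a KRAB zinc finger gene, had the lowest shift of these at -2.31: it had 1.10 and 1.09 FPKM in the whole-cell pair, 10.0 and 1.33 in the nuclear pair, and 1.63 and 1.11 in the cytosolic pair. The control nuclear library alone was high, and it stood above the control whole-cell value.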
